A study of Mus musculus with 9 samples.

Results

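The T cell receptor beta V genes are the germline segments from which each developing T cell picks 1 for the variable part of its receptor beta chain. They were taken as all rows of the deposited table whose symbol starts with Trbv followed by a digit, which gave 35 genes of 46517. The table gives RNA levels as FPKM (fragments scaled by gene length and library size) in 9 bulk libraries of C57BL/6 mice older than 18 months. There were 3 wild-type spleens (mice 1, 4 and 5), 4 spleens of plckGAPDH mice (343, 508, 547 and 1 whose column gives no animal number, called the unnumbered spleen) and 2 lymph nodes of plckGAPDH mice (455 and 508). The plckGAPDH mice carry a Gapdh transgene driven by the Lck promoter of the T lineage, and the labels describe them as developing tumours. The protocol names splenocytes as the source of RNA for the nodes also. There was no wild-type node, so where nodes are set beside wild-type spleens, tissue and genotype cannot be told apart. Animal 508 gave a spleen and a node, and the labels also list a plckGAPDH spleen 331 that matches no column by name. The unnumbered spleen may be that animal or a further sample of 343 or 547, with which its V gene shares overlapped by 20.7% and 26.2%; it is counted as 1 of n = 4 plckGAPDH spleens on the labels' number of samples. Nothing in the labels beyond the animal numbers says that samples were prepared separately, so the p-values below speak of the spread among these libraries, which may in part be technical.

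During T cell development in the thymus, recombination joins 1 V segment to a D and a J segment, and splicing then joins the result to the constant gene Trbc1 or Trbc2. The receptor beta chain pairs with an alpha chain and reaches the cell surface together with the CD3 chains. Descendants of 1 T cell keep its rearranged beta chain, so the V genes seen in a tissue reflect which T cell families are present and how much receptor RNA they make. In bulk RNA, more cells using a V gene and more RNA per cell cannot be told apart.

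All members lie on chromosome 6 between 40891229 and 41558452 (build GRCm38, which is mm10), and 34 are on the plus strand. Trbv31 is the exception, on the minus strand and beyond the constant genes Trbc1 (41538218 to 41539881) and Trbc2 (41546730 to 41548352). The GENCODE annotation lists 22 members as functional V genes and 13 as pseudogenes. Below are the last 75 germline bases of the 10 members that led a library, came next to the leader in animal 508, or were called between spleens, read from the GENCODE transcripts 5′ to 3′ on the strand of the gene. Capitals start at the first in-frame cysteine codon found in the last 24 bases, the germline start of the CDR3 loop, which contacts antigen.
Trbv2 (chr6:41047921-41047995): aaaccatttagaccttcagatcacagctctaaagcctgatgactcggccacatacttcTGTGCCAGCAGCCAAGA
Trbv3 (chr6:41048754-41048828): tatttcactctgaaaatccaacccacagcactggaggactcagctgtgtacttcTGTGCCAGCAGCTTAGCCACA
Trbv4 (chr6:41059812-41059886): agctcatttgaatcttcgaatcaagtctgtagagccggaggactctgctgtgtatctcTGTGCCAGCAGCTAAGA
Trbv12-1 (chr6:41113993-41114067): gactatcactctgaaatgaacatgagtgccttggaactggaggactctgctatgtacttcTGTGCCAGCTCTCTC
Trbv13-1 (chr6:41116394-41116468): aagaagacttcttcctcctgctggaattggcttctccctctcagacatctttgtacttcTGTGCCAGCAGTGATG
Trbv15 (chr6:41141584-41141658): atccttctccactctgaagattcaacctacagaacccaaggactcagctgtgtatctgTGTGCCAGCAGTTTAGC
Trbv16 (chr6:41152156-41152230): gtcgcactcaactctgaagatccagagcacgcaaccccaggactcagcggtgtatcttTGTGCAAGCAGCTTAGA
Trbv19 (chr6:41178974-41179048): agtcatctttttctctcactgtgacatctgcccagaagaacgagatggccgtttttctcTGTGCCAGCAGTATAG
Trbv20 (chr6:41188903-41188977): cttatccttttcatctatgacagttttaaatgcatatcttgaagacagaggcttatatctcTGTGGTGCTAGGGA
Trbv31 (chr6:41557691-41557765, minus strand): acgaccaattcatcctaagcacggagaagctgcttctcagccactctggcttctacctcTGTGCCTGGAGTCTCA

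Of the 22 functional members, 13 begin the capital stretch with TGTGCCAGC on their own strand. Trbv20, Trbv31 and Trbv16 are among the 9 that do not. The capital stretch is identical in Trbv2 and Trbv5, in Trbv12-1 and Trbv12-2, and in Trbv13-1 and Trbv13-3, so these pairs differ only in the bases before it. In Trbv4, the fifth codon of the capitals is TAA, a stop codon in the germline frame, and no other functional member has a stop codon there. Such end bases are often trimmed when V joins D. The members most alike were Trbv13-2 and Trbv13-3, 91.4% identical over 280 aligned bases, then Trbv12-1 and Trbv12-2 (88.9%) and Trbv13-1 and Trbv13-2 (88.2%). The last 75 bases of Trbv12-1 and Trbv12-2 differ at 5 positions. No stretch of 75 bases, the length of 1 read, is shared between these members. Trbv4 shares 223 of its 319 such stretches with the row 5830405F06Rik and Trbv5 shares 222 of 294 with it, so their values carry an uncertainty of assignment; 5830405F06Rik itself was at 0 to 0.82 FPKM. All 211 stretches of the pseudogene Trbv8 occur in another gene also.

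Depth was estimated from the steps between low FPKM values at 23600000 fragments (plckGAPDH spleen 508) to 34300000 (plckGAPDH spleen 547), of which 365 to 2171 per library fell on Trbv genes. A gene at 0 can therefore still have had a share of the Trbv fragments of up to 0.138% (3 fragments of 2171, unnumbered spleen) to 0.822% (spleen 508). The limits are 3 fragments over the library's Trbv fragments, the intervals given with shares of fragments are exact binomial 95% intervals, and both cover counting error only. Levels of the T cell genes, the B cell genes and other lineages differed widely within groups: the summed FPKM of 6 plasma cell markers was 219 to 326 in wild-type spleens, 74.1 to 4478 in plckGAPDH spleens and 2376 to 2620 in nodes. The sum over 8 erythroid markers reached 74191 in wild-type spleen 5 and was 1.93 in the lowest wild-type spleen. The FPKM of all genes together was 1686755 in wild-type spleen 5 and 2341951 in spleen 508, so these marker sums were small parts of it. Genes that take many fragments lower the FPKM of all others, but how far these markers did so for the Trbv genes was not tested. Shares within the Trbv family are not affected by that scaling.

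Every functional Trbv gene was above 0 in at least 1 library, whereas 9 of the 13 pseudogenes (Trbv6, Trbv7, Trbv10, Trbv11, Trbv12-3, Trbv18, Trbv22, Trbv25 and Trbv28) were listed at 0 in all 9. The other 4 pseudogenes, Trbv8, Trbv9, Trbv24 and Trbv27, together made 0 to 1.5% of the Trbv FPKM of a library. Altogether 10 members were above 0 in every library (Trbv3, Trbv4, Trbv5, Trbv12-1, Trbv12-2, Trbv13-2, Trbv15, Trbv16, Trbv19 and Trbv20), and 13 never reached 1 FPKM. The 14 Trbj and 2 Trbd rows were listed at 0 throughout, as were all 2356 genes shorter than 100 bases, so nothing can be read about J or D use.

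Wild-type spleens used the V genes broadly. The largest share of the family sum was 10.03% for Trbv13-1 in wild-type spleen 1, 10.6% for Trbv15 in wild-type spleen 4 and 10.9% for Trbv15 in wild-type spleen 5. By mean share, Trbv13-1 (8.51% ± 1.59, SD, n = 3), Trbv3 (8.21% ± 1.09), Trbv15 (8.19% ± 4.50) and Trbv13-2 (8.14% ± 1.77) came first, and they did not differ beyond their spread. Trbv16 (7.45% ± 1.39), Trbv13-3 (7.15% ± 2.70) and Trbv17 (6.34% ± 3.01) followed. At the low end of the functional genes, Trbv23 held 0.735% ± 0.0839, Trbv30 0.346% ± 0.231 and Trbv21 0.16% ± 0.14. The 4 largest members together made 34.5%, 39.4% and 36.2% of the 3 wild-type families. Proportional overlap, the sum over genes of the smaller share of a pair of libraries, was 78.0% to 85.7% in the 3 wild-type pairs.

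**Figure D1:**
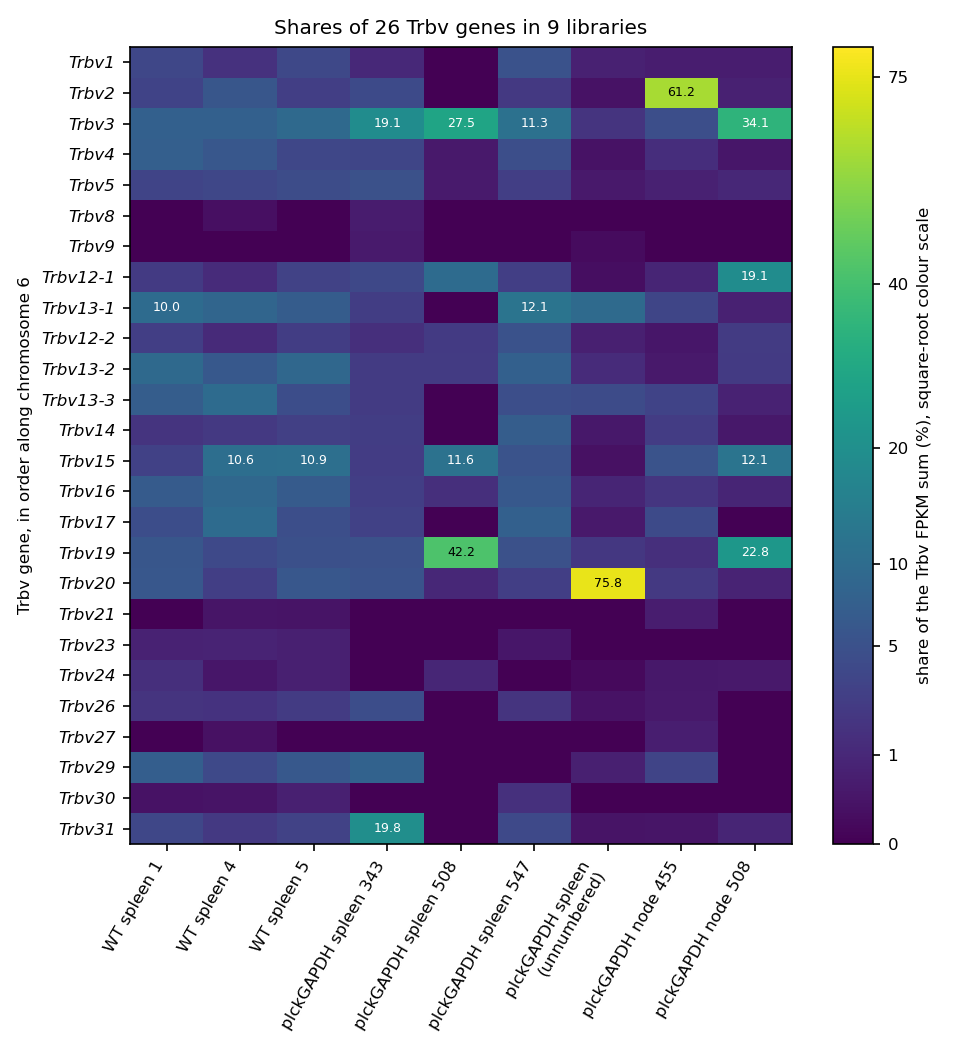
Share of each of the 26 Trbv genes above 0 in the Trbv FPKM sum of its library (colour, square-root scale; shares of 10% or more are printed), with genes in order along chromosome 6 and 1 column per library. Single bright cells stand out in the unnumbered plckGAPDH spleen (Trbv20, 75.8%), node 455 (Trbv2, 61.2%) and spleen 508 (Trbv19, 42.2%), and wild-type columns have none above 10.9%.

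In the unnumbered plckGAPDH spleen, 1 member outweighed the rest of the family. Trbv20 was at 6.76, 5.59 and 16.2 FPKM in wild-type spleens 1, 4 and 5, at 4.06, 0.48 and 1.57 in plckGAPDH spleens 343, 508 and 547, at 370 in the unnumbered spleen, and at 1.37 and 0.40 in nodes 455 and 508. The unnumbered spleen was 22.8 times the highest wild-type level, and the other plckGAPDH libraries lay below every wild-type spleen. Trbv20 made 75.8% of the family sum there, or 71.1% of its fragments (interval 69.1% to 73.0%), against 2.82% to 6.02% in wild-type spleens. Trbv13-1 came next at 9.74%. Its FPKM was 11.3, 17.1 and 18.7 in the wild-type spleens, 2.02, 0 and 6.90 in spleens 343, 508 and 547, 47.5 in the unnumbered spleen and 2.13 and 0.34 in the nodes. Trbv13-1 was thus also above the wild-type range in this library only. Its relative Trbv13-3 was at 7.88, 19.6 and 12.3 FPKM in the wild-type spleens, 1.86, 0 and 2.70 in spleens 343, 508 and 547, 20.5 in the unnumbered spleen and 2.00 and 0.39 in the nodes; the highest wild-type value and the unnumbered spleen were close. Of the 22 members above 0 in all wild-type spleens, 20 were still above 0 in the unnumbered spleen.

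In node 455 the leading member was another one. Trbv2 was at 3.70, 11.4 and 7.71 FPKM in the wild-type spleens, 3.08, 0, 1.26 and 0.93 in plckGAPDH spleens 343, 508, 547 and the unnumbered spleen, 36.8 in node 455 and 0.35 in node 508. All plckGAPDH spleens lay below all wild-type spleens, and node 455 was 3.24 times the highest of them. Trbv2 made 61.2% of the node's family sum and 73.9% of its Trbv fragments (interval 69.8% to 77.7%). Next came Trbv15, with 5.37%. As in the unnumbered spleen, a single gene sufficed for over 50% of the family, and 20 of the 22 members above 0 in all wild-type spleens were detected.

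Animal 508, sampled in both organs, had the same 4 leading members in both. In its spleen these were Trbv19 (42.2%), Trbv3 (27.5%), Trbv15 (11.6%) and Trbv12-1 (9.84%), and in its node Trbv3 (34.1%), Trbv19 (22.8%), Trbv12-1 (19.1%) and Trbv15 (12.1%). Together they made 91.1% of the spleen's and 88.2% of the node's family sum (344 and 383 fragments). The same 4 genes held 18.6% to 28.3% in wild-type spleens and 4.22% to 30.5% in the other plckGAPDH libraries. Trbv12-1 falls outside the rule for genes given in full and is named here after its values were seen.

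The levels behind these shares differed between the 4 genes. Trbv19 was at 6.43, 7.70 and 12.99 FPKM in the wild-type spleens, 3.74, 20.6, 2.84 and 10.5 in plckGAPDH spleens 343, 508, 547 and the unnumbered spleen, and 0.88 and 11.7 in nodes 455 and 508. Spleen 508 was the only library above the wild-type range. Trbv3 was at 8.49, 15.1 and 25.8 FPKM in the wild-type spleens, 14.5, 13.4, 6.47 and 8.73 in the plckGAPDH spleens in the same order, and 2.83 and 17.5 in the nodes. No library exceeded the wild-type range for Trbv3, and its high share in animal 508 stood beside low values of other members. Trbv15 was at 3.37, 21.1 and 29.8 FPKM in the wild-type spleens, 1.98, 5.64, 3.02 and 0.80 in the plckGAPDH spleens, and 3.23 and 6.21 in the nodes. Both libraries of animal 508 lay within the wide wild-type range for Trbv15. Trbv12-1 was at 2.57, 2.46 and 8.57 FPKM in the wild-type spleens, 2.90, 4.80, 1.58 and 0.55 in the plckGAPDH spleens, and 0.52 and 9.83 in the nodes. It was the 1 member above its wild-type range in node 508.

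The order within the 4 genes was not the same in both organs of animal 508. By fragments, Trbv19 held 54.0% of the family in the spleen (interval 48.7% to 59.2%) and 32.1% in the node (27.7% to 36.8%). Trbv3 held 25.5% (21.1% to 30.3%) in the spleen and 35% (30.4% to 39.8%) in the node, and Trbv12-1 held 7.12% (4.71% to 10.3%) and 15.2% (11.9% to 19%). The intervals of the 2 organs did not meet for these 3 genes, though for Trbv3 they came as close as 30.3% and 30.4%. Those of Trbv15 did meet, at 7.67% (5.16% to 10.9%) and 8.81% (6.28% to 11.9%). Shares are parts of 1 whole, so these are not separate differences. With 1 library per organ there is no replicate check of these differences. The proportional overlap of the 2 libraries was 79.1%, within the range of wild-type pairs, whereas nodes 455 and 508 overlapped by 19.3%. In the spleen, 11 of the 22 members above 0 in all wild-type spleens were at 0, among them Trbv2, Trbv13-1 and Trbv31, and 5 of the 22 were at 0 in the node. Spleen 508 had the fewest Trbv fragments (365) of the libraries.

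**Figure D2:**
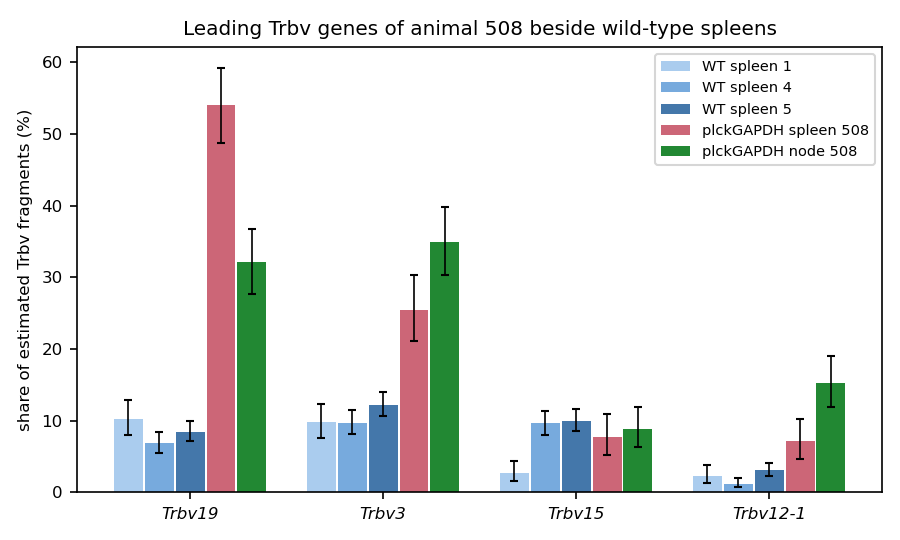
Share of the estimated Trbv fragments (y axis, %) of the 4 leading members of animal 508 in its spleen and node and in the 3 wild-type spleens, with exact binomial 95% intervals for counting error. Trbv19 reached 54.0% in the spleen and 32.1% in the node, above each wild-type bar, while the Trbv15 bars of animal 508 overlap those of wild-type spleens.

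Spleen 343 stood between these libraries and the wild-type spleens. Trbv31, the inverted V gene at the far end of the locus, was at 4.13, 4.44 and 8.45 FPKM in the wild-type spleens, 15.04, 0, 2.22 and 1.14 in plckGAPDH spleens 343, 508, 547 and the unnumbered spleen, and 0.16 and 0.44 in the nodes. Spleen 343 was the only library above the wild-type range, at 1.78 times its highest value, and the others were all below it. Trbv31 made 19.8% of the family sum of spleen 343 and Trbv3 19.1%. Counted in fragments the order was the opposite, Trbv3 with 23.6% (interval 19.7% to 27.8%) and Trbv31 with 17.7% (14.2% to 21.6%). The 4 leading members made 52.2% of the family, and overlap with wild-type spleens was 55.2% to 66.1%.

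Spleen 547 was the plckGAPDH library with the highest overlap with wild-type spleens in its V gene shares. Its leading members, Trbv13-1 (12.1%), Trbv3 (11.3%) and Trbv13-2 (7.68%), were each among the 4 largest of at least 1 wild-type spleen. Trbv13-2 was at 10.5, 12.1 and 24.4 FPKM in the wild-type spleens, 1.86, 1.18, 4.39 and 6.06 in spleens 343, 508, 547 and the unnumbered spleen, and 0.22 and 1.18 in the nodes, so every plckGAPDH library was below every wild-type spleen. Overlap of spleen 547 with the wild-type spleens was 73.3% to 78.8%, against 78.0% to 85.7% among wild-type spleens. Its shares were above the wild-type range for 7 members and below it for 7. With only 3 libraries setting that range, a further similar library would also leave it for many members. These counts alone therefore show no difference from wild type. Trbv29, at 3.93% to 7.27% in wild-type spleens, was at 0 of 441 fragments in spleen 547. Its family sum, 57.1 FPKM, was below each wild-type sum.

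The effective number of V genes condenses these patterns. It is the exponential of the Shannon entropy of the shares, and equals the number of genes when all are used alike. It was 18.1, 16.8 and 18.4 in the wild-type spleens, 14.0, 4.79, 16.7 and 2.88 in plckGAPDH spleens 343, 508, 547 and the unnumbered spleen, and 5.53 and 6.09 in nodes 455 and 508. Spleen 547 lay just under the wild-type range, and 4 of the 6 plckGAPDH libraries were below 7. Among these were both libraries of animal 508, which are not independent, and both nodes, which have no wild-type node beside them. The largest share averaged 10.5% ± 0.463 (SD, n = 3) in wild type and 37.5% ± 28.6 (SD, n = 4) in transgenic spleens, and the latter was 24.7% without the unnumbered spleen. The 6 pairs of plckGAPDH spleens overlapped by 8.55% to 57.0%, and the lowest was the pair of spleen 508 and the unnumbered spleen. Where the subfamilies Trbv12 and Trbv13 were each added together, the wild-type effective number was 13.3 ± 0.843 (SD, n = 3) and that of the plckGAPDH spleens 7.95 ± 5.19 (SD, n = 4).

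**Figure D3:**
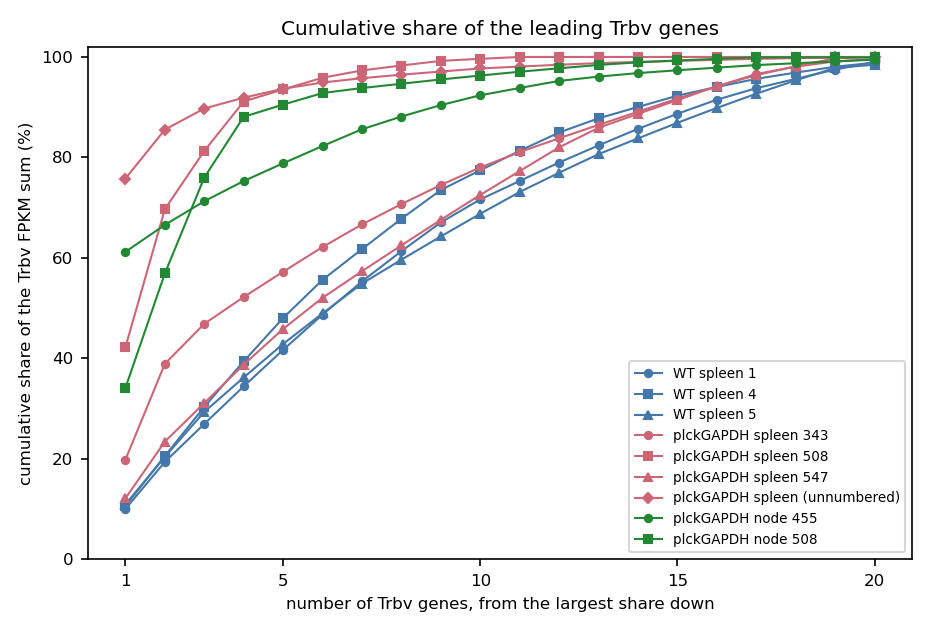
Cumulative share of the Trbv FPKM sum (y axis, %) against the number of genes counted from the largest share down (x axis), 1 line per library, coloured by group. The wild-type lines and plckGAPDH spleen 547 rise slowly from first shares of 10.03% to 12.1%, and the lines of the unnumbered spleen, spleen 508 and both nodes pass 75% by the fourth gene.

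The family sum was 112, 198 and 273 FPKM in wild-type spleens 1, 4 and 5, 76.0, 48.8, 57.1 and 488 in plckGAPDH spleens 343, 508, 547 and the unnumbered spleen, and 60.1 and 51.3 in nodes 455 and 508. The unnumbered spleen was above the wild-type range and the other 5 plckGAPDH libraries were below it. The group mean of 167 ± 214 FPKM (SD, n = 4) in plckGAPDH spleens against 194 ± 80.3 (SD, n = 3) rested on the unnumbered spleen, and was 60.7 without it. Each rearranged beta chain RNA also carries a constant gene. Trbc1 was at 64.8, 82.1 and 139 FPKM in the wild-type spleens, 32.2, 25.3, 32.1 and 239 in the plckGAPDH spleens, and 22.2 and 19.5 in the nodes. Trbc2 was at 137, 268 and 407 in the wild-type spleens, 145, 75.5, 77.8 and 357 in the plckGAPDH spleens, and 98.0 and 75.8 in the nodes. Trbc1 was highest in the unnumbered spleen, whereas Trbc2 was highest in wild-type spleen 5. Relative to Trbc1 plus Trbc2, the Trbv sum was 0.5 to 0.567 in wild-type spleens, 0.43, 0.484 and 0.52 in spleens 343, 508 and 547, 0.5 and 0.538 in the nodes, and 0.819 in the unnumbered spleen.

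The mean FPKM of Cd3d, Cd3e and Cd3g, the CD3 chains of the receptor complex, was 35.2, 70.4 and 70.3 in the wild-type spleens, 32.0, 13.9, 23.0 and 120 in the plckGAPDH spleens and 30.1 and 14.5 in the nodes. Divided by it, the Trbv sum was 3.29 ± 0.538 (SD, n = 3) in wild-type and 3.10 ± 0.813 (SD, n = 4) in plckGAPDH spleens, which differ by less than their spread, as the family sums themselves do. Without the largest member of each library, that ratio was 2.52 to 3.45 in wild-type spleens, 1.91, 2.02, 2.18 and 0.982 in spleens 343, 508, 547 and the unnumbered spleen, and 0.777 and 2.34 in nodes 455 and 508. Every plckGAPDH library was then below every wild-type spleen; leaving out the largest member takes more from a library where 1 gene leads, so part of this order follows from how the ratio was made.

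**Figure D4:**
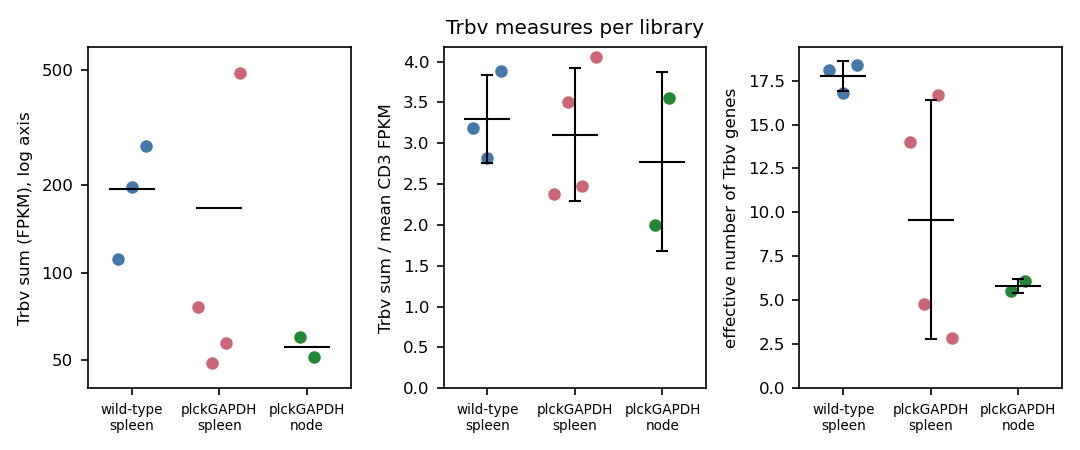
Trbv FPKM sum (left, log axis), Trbv sum divided by the mean FPKM of Cd3d, Cd3e and Cd3g (middle) and effective number of Trbv genes (right), 1 point per library. Horizontal marks are group means, and bars in the middle and right panels are SD (n = 3, 4 and 2); the unnumbered plckGAPDH spleen is the point at 488 FPKM and the one at an effective number of 2.88.

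Between spleens, 2 members were called lower in plckGAPDH mice, though not under every alternative given below. Trbv4 was at 8.41, 12 and 10.1 FPKM in the wild-type spleens, 2.65, 0.18, 2.71 and 1.01 in plckGAPDH spleens 343, 508, 547 and the unnumbered spleen, and 0.84 and 0.15 in the nodes. The groups of spleens did not overlap, and the log2 fold change was -2.22 (SE 0.44, limma FDR 0.0234, n = 4 and 3). Trbv16 was at 7.42, 18.0 and 18.2 FPKM in the wild-type spleens, 2.09, 0.71, 3.54 and 4.21 in the plckGAPDH spleens, and 1.17 and 0.44 in the nodes, and its log2 fold change was -2.12 (SE 0.47, limma FDR 0.0486). Here too every plckGAPDH spleen was below every wild-type spleen. As a share of the family, Trbv16 was below the wild-type range in all 4 plckGAPDH spleens. Trbv4 was below it in 3, as spleen 547 was at 4.74% within the wild-type range of 3.70% to 7.49%. Not all of these gaps exceeded counting error. By fragments, Trbv16 held 6.35% in spleen 547 (interval 4.26% to 9.05%), against 6.90% in the lowest wild-type spleen. Trbv4 held 3.40% in spleen 343 (interval 1.92% to 5.55%), against 3.74% in the lowest wild-type spleen. FDR is the Benjamini-Hochberg value over all 12607 genes tested with limma on log2(FPKM + 1), a scale that understates changes of low genes, and genes under 0.05 were called.

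These 2 were among 19 members tested, and lower calls made up 1.23% of all genes tested. Genes had to reach 1 FPKM in 3 spleens, and all 19 did so in the 3 wild-type spleens alone. A member that reached 1 FPKM in only 1 or 2 plckGAPDH spleens and in no wild-type spleen could not have entered. The highest value of an untested member in a plckGAPDH spleen was 0.89 FPKM (Trbv30, spleen 547). All 19 would have entered on their wild-type levels alone, so the counts over them describe them and support no direction. With an unadjusted p under 0.05, 11 of the 19 were lower (background 4.67%), and in 6 of the 19 every plckGAPDH spleen lay below every wild-type spleen (background 3.88%): Trbv2, Trbv4, Trbv13-2, Trbv16, Trbv17 and Trbv29. The 19 fold changes ran from -2.28 for Trbv29 (SE 0.65, FDR 0.17) to -0.06 for Trbv20 (SE 1.43, FDR 0.997), with a median of -1.49 against 0.02 over all genes. Trbv15 was at -2.06 (SE 0.64, FDR 0.232), Trbv13-2 at -2.0 (SE 0.48, FDR 0.0729), Trbv2 at -1.96 (SE 0.49, FDR 0.0939) and Trbv13-3 at -1.79 (SE 0.79, FDR 0.528). Of the leading genes of single libraries, Trbv19 was at -0.24 (SE 0.57, FDR 0.988) and Trbv3 at -0.50 (SE 0.45, FDR 0.903). Trbv13-1 was at -1.49 (SE 0.96, FDR 0.805) and Trbv31 at -0.98 (SE 0.73, FDR 0.855).

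Both calls were lost under several other treatments of the data. When FPKM was scaled to the mean of the 3 CD3 genes, the median over all genes moved to 0.64, 0 of 20 members were called (4 had an unadjusted p under 0.05), and Trbv4 was at -1.65 (SE 0.74, FDR 0.527). When the immunoglobulin V genes were left out of the table, 0 of 12438 genes were called (974 had an unadjusted p under 0.05) and Trbv4 kept its fold change with an FDR of 0.0893. Without wild-type spleen 4 or 5, 0 members were called, with 9 and 8 at an unadjusted p under 0.05. The fold changes were then -2.10 and -2.22 for Trbv4 and -1.93 and -1.92 for Trbv16.

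**Figure D5:**
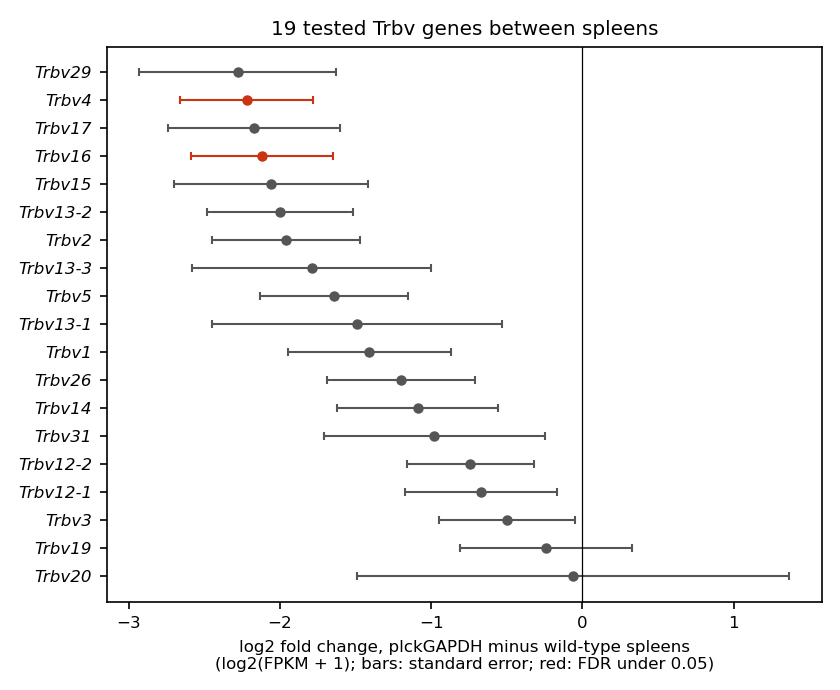
Log2 fold change (x axis, plckGAPDH minus wild-type spleens, on log2(FPKM + 1)) with its standard error for the 19 Trbv genes tested, from limma (4 and 3 spleens). Trbv4 and Trbv16, in red, had an FDR under 0.05, and Trbv20, high in the unnumbered spleen alone, has the widest bar.

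Between lymph nodes and plckGAPDH spleens, 0 of 21 members tested were called with limma in a fit of all 9 libraries, in which 2 of 13682 genes were called (0.0146%). At an unadjusted p under 0.05, 1 member, Trbv13-2, was lower in nodes (log2 fold change -1.27, SE 0.54, FDR 0.359), where the background was 11.3%. Trbv2 was at 1.80 (SE 1.03, FDR 0.359), set by node 455 alone. The median over all genes was -0.59 in this comparison, and that of the members -0.74. This comparison shares the plckGAPDH spleens with the one above, and 1 of the 2 nodes shares its animal with a spleen.

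The choice of constant gene did not differ beyond the spread. Trbc1 made 32.1%, 23.5% and 25.5% of Trbc1 plus Trbc2 in the wild-type spleens and 18.2%, 25.1%, 29.2% and 40.1% in spleens 343, 508, 547 and the unnumbered spleen, the last being the highest of all libraries. The nodes were at 18.5% and 20.5%. Wild type averaged 27.0% ± 4.53 (SD, n = 3) and plckGAPDH 28.2% ± 9.18 (SD, n = 4), a difference of 1.15 points (two-sided exact permutation p = 0.914; the 35 arrangements allow no p under 0.0286).

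Other T cell genes were read beside the family, since its FPKM may vary with the amount of T cell RNA in a library, which was not tested. Of 7 receptor complex genes (Trac, Trbc1, Trbc2, Cd3d, Cd3e, Cd3g and Cd247), 0 of 7 were called between spleens with limma and 0 had an unadjusted p under 0.05. Their median log2 fold change was -0.80, against 0.02 over all genes tested. Trbc1 was at -0.83 (SE 0.70, limma FDR 0.891) and Trbc2 at -0.89 (SE 0.61, limma FDR 0.827). Of 15 general T cell genes, 1 was called lower and 0 higher. This was Il7r, the receptor chain for interleukin 7 that resting T cells carry, at -2.38 (SE 0.48, limma FDR 0.0287). The median of the 15 was -1.05, with 0 positive fold changes. By limma, 3 of them had an unadjusted p under 0.05, as did 1116 of all 12607 genes. Lower calls made up 1.23% of all genes tested. The call of Il7r and those of Klrd1 and Klre1 below were lost when the immunoglobulin V genes were left out of the table. In that fit 0 genes were called. Trdc, the constant gene of the delta chain, was at 0.40 to 2.70 FPKM in wild-type spleens and at most 0.11 elsewhere. Summed FPKM of the recombination genes Rag1, Rag2, Dntt and Ptcra, which are active in immature lymphocytes, was 0.22 to 1.63 in wild-type and 0.0700 to 0.26 in plckGAPDH spleens. Of 5 NK cell markers, 2 were called lower, Klrd1 and Klre1, and 4 had an unadjusted p under 0.05 by limma. With limma, 0 of the tested B cell (7), plasma cell (6), neutrophil (6), erythroid (7) and red pulp (5) markers were called. Of these, 2 plasma cell markers had an unadjusted p under 0.05. In libraries of animal 508, where 4 Trbv genes led, Cd8a was at 0.48 and 0.43 FPKM against 9 to 32.7 in wild-type spleens, and Cd4 at 12.7 and 9.04 against 21.1 to 35.3. The mean of the CD3 genes was also lowest in these libraries (13.9 and 14.5 FPKM against 35.2 to 70.4 in wild-type spleens). The Cd4 and Cd8a levels were not divided by it. Cd4 was lowest in spleen 547 (4.32 FPKM), whose Cd8a was 20.1. It was highest in the unnumbered spleen (82.9 FPKM, Cd8a 17.1), where 1 Trbv gene led, and was 27.6 in node 455 (Cd8a 5.38). The part of such differences in T cell makeup in the V gene shares was not tested.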

How the data were processed

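Total RNA (500 ng per library, stranded total RNA kit, read pairs of 75 bases, per the labels' protocols) was measured in 9 libraries. The deposited file holds FPKM of 46517 genes. The submitters' processing notes name RSEM, Bowtie2 2.2.6, STAR 2.4.0a and featureCounts of Subread 1.5.0-p3, and the build mm10. The annotation, the tool behind the FPKM and the assignment of reads shared by similar V genes: not given in the sources used here. Every column of values was mapped to a group (0 were left out). The members and lists were chosen with earlier results of these data known.

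Depth was fitted per library from low FPKM of genes with 1 transcript of 280 to 4000 bases, using length less the fragment length. In the chosen fit, 84.5% to 88.2% of these values lay within 0.15 of a whole fragment. The fit was chosen to bring the same values near whole fragments, so this is no independent check of it. Estimated fragments are FPKM converted back with that fit. Lengths, types and sequences came from GENCODE vM21 (GRCm38).

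The limma fits (version 3.58.1, R 4.3.3) used log2(FPKM + 1), an intensity trend in the prior variance, and genes with 1 FPKM in 3 of 7 spleens or in 2 of 9 libraries for the nodes, with Benjamini-Hochberg adjustment over all genes tested (FDR, called under 0.05), because FPKM are not counts. Family sums, shares and effective numbers are given as values without a p-value; Dixon's gap criterion only picks libraries for the closing section. Genes given with values in every library are the 2 with the largest share in each library and those called between spleens. Alternatives were a pseudocount of 0.1, other filters and scalings, sample weights, shares of fragments, merged subfamilies, pseudogenes left out and each library left out.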

Additional observations from a re-analysis of the deposited data

Results flagged for a closer look

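In the 4 plckGAPDH spleens, 27 measures were examined for a library far from the others (Dixon's gap over range), and 6 stood out. Chance alone picks about 1 in 20 independent groups of normally distributed values, so the count of 6 cannot be set against that rate. Whether these values are normally distributed was not tested, and members entered only if their highest plckGAPDH spleen reached 1 FPKM. The measures are also not independent. Shares of a family sum to a whole, and 3 of the 6 are summed levels of the same library. Trbv19 made 42.2% of the family in spleen 508, against 2.15% to 4.97% in the others. Trbv20 made 75.8% in the unnumbered spleen, against 0.984% to 5.34%. Trbv29 made 7.96% in spleen 343, against 0 to 0.623%, although wild-type spleens were at 3.93% to 7.27%, so here the 3 other spleens were the low ones. The unnumbered spleen also stood apart in the Trbv sum (488 FPKM against 48.8 to 76.0), in the sum of Trbc1 and Trbc2 (596 against 101 to 177) and in the mean of the CD3 genes (120 against 13.9 to 32.0, a gap over range of 0.830 that only just passed).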

How the results depend on the processing

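The count of members lower in plckGAPDH spleens, 2 of 19, was not stable: it was 0 with a pseudocount of 0.1, 0 without a filter on low values, 1 with a filter on the mean, 1 with median-of-ratios scaling (Trbv13-2), 6 with sample quality weights (whose estimation stopped before reaching its tolerance, here and below), and 0 with CD3 scaling or with immunoglobulin V genes left out, the last 2 chosen after seeing the data; at an unadjusted p under 0.05 limma gave 4 to 12 members in these fits. Leaving out 1 library gave 0 to 4. No member was called higher in any of these fits. Trbv4 was called in 6 and Trbv16 in 4 of 14 alternatives, with FDR of 0.000444 to 0.527 and 0.0199 to 0.728, and both stayed negative. Sample quality weights turned Trbv13-1 to 0.35, Trbv19 to 0.22, Trbv20 to 2.69 and Trbv3 to 0.12; CD3 scaling turned Trbv19 to 0.44, Trbv20 to 0.33 and Trbv3 to 0.24; over single libraries left out Trbv19 ran from -0.70 to 0.13 and Trbv20 from -1.84 to 0.82. None of these was called, and the cause was not tested. The node comparison called 0 members in every alternative, with 0 to 9 at an unadjusted p under 0.05. With subfamilies merged, the wild-type effective number was 13.3 and the wild-type largest share 23.8%, since Trbv13 then counts as 1. The Trbc1 difference was -0.628 without wild-type spleen 4 and -2.84 without the unnumbered spleen, with a range of -2.84 to 4.47 over single libraries left out. No paired analysis was possible because the groups share only 1 animal number. Depth of 365 to 2171 Trbv fragments limits statements on members under 1% of a family.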
